A study of Rattus norvegicus with 23 samples.

Results

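All 23 blood samples of the study were compared by the diet of the dam: 11 pups nursed by calorie-restricted dams (CR) against 12 pups nursed by control dams, as their titles state. Peripheral blood mononuclear cells (PBMC, the lymphocytes and monocytes of blood) were taken from Wistar rats at weaning, at 21 days of age. CR dams had received 20% fewer calories than control dams from the day after delivery to weaning, and all groups were killed with free access to food. Control dams had nursed 6 of the males and 6 of the females, CR dams 5 of the males and 6 of the females, and each pup's Cy5-labelled RNA was hybridised with a Cy3-labelled pool of RNA from the samples. Every value below is the log2 ratio of 1 pup to that pool, and every difference is the CR mean minus the control mean within each sex, averaged over males and females. Positive differences are therefore higher in pups of CR dams. The litters came from 11 control and 5 CR dams, so some of the 11 CR pups shared a dam. The labels tie no pup to a litter, and p-values that treat pups as independent may be too small.

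B cells carry the surface protein CD20, take up antigen through clathrin-coated vesicles and present its peptides on major histocompatibility complex (MHC) class II molecules, which are assembled with the invariant chain CD74. T cells, natural killer cells and monocytes make up most of the rest of a PBMC preparation, while neutrophils and red cells are largely removed by density separation.

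The markers of the labelled tissue were present: 22 of 22 T cell genes and 17 of 17 B cell genes on the array were well above background, with 15 of 18 monocyte genes and 15 of 16 natural killer genes. Between 20603 and 24076 of 41012 probes were well above background in Cy5 on each array. Among the 12 control arrays 4 stood apart in genes of the intestinal epithelium. On control males 1, 2 and 5 and control female 1 the median over 22 measured intestinal genes (a list written after the values were seen) lay between -0.13 and 1.38, and on the other 19 arrays between -1.10 and -0.64. Of these 4 arrays 3 were on 1 slide, and none was from a CR pup. The 4 arrays were picked by a cut on the ratio of 1 intestinal gene, Reg3b. Results are therefore also given without these 4, on 8 control and 11 CR arrays. Red cell markers also varied: the array medians of 20 red cell genes ran from -1.29 to 1.03 in controls and from -1.20 to 2.00 in CR pups.

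After 1 probe was kept for each gene name, 20184 features were tested, of which 10047 carried a current RefSeq symbol. No feature passed an adjusted p of 0.05 (0% of those tested; limma with Benjamini-Hochberg adjustment), and the smallest adjusted p was 0.148. At an unadjusted p under 0.05, 974 features were lower in CR pups (4.83% of those tested) and 619 were higher (3.07%), where 1009 in both directions together would follow from the threshold alone. Of the 100 features with the smallest p, 83 were lower in CR pups. The median standard error of a difference was 0.061, and for 19303 features (95.6%) the whole 95% confidence interval lay within 0.5 of 0 on the log2 scale. For no feature did all 11 CR arrays lie below, or all above, all 12 control arrays (0% in each direction). Without the 4 arrays high in intestinal genes 894 features were lower and 673 higher at the same threshold, none passed the adjusted threshold, and the smallest adjusted p was 0.241. Leaving out CR male 2 alone gave 1405 lower and 950 higher features. Of these 3 passed the adjusted threshold (Fgd2, Hip1r and Gga2), and 1 passed it when CR female 1 was left out (Fcho1). When the log ratios were only centred on each array's median, with no loess curve, 3172 were lower and 159 higher, a split of 95.2% lower against 61.1% here.

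The 14 named genes with the smallest p among those lower in CR pups were, in order, Fcho1, Fgd2, Gga2, Havcr1, Btbd11, Laptm4b, Hip1r, Ms4a1, Pcyt2, Cnr2, Plcg2, Dot1l, Sox5 and Unc5b. Their adjusted p ran from 0.148 to 0.382, so none was called. All 14 were below 0 in males and in females, and 9 of 14 were below 0 on each of the 6 slides. The genes were picked for a small p on these same arrays, which favours such agreement. Of the 100 features with the smallest p, 100 had the same sign in both sexes.

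**Figure D1:**
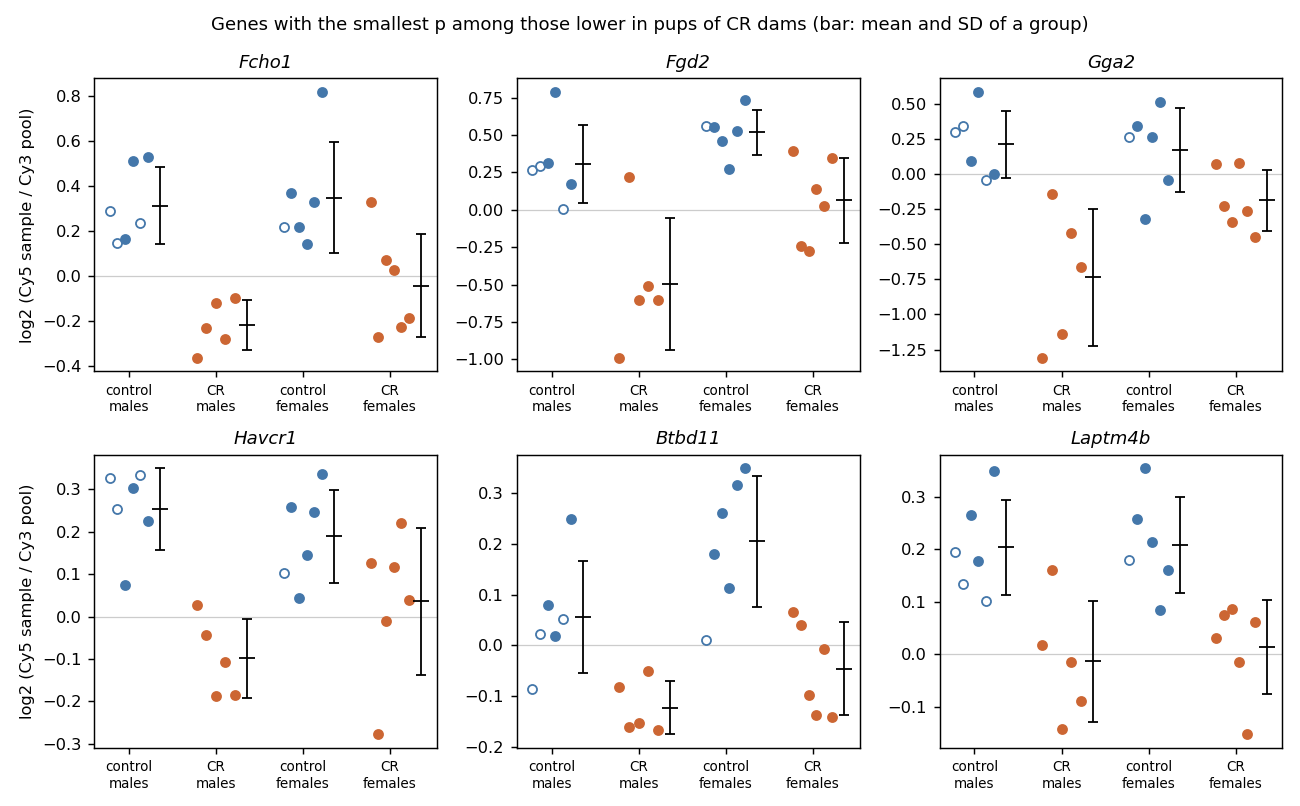
Log2 ratio of each pup to the pool (vertical axis) by sex and diet of the dam for the 6 genes with the smallest p among those lower in CR pups. Points are arrays, open points are the 4 control arrays high in intestinal genes, and bars give the group mean and SD; for Fcho1 10 of 11 CR arrays lie below the lowest control array.

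Fcho1 encodes an F-BAR protein that starts clathrin-coated pits at the plasma membrane. Its probe (chr16:18905593-18905838 on rn4) gave log2 ratios from 0.14 to 0.82 in control pups, with a median of 0.26. In CR pups the ratios ran from -0.37 to 0.33, with a median of -0.19. The groups met only through CR female 1: the other 10 CR arrays all lay below the lowest control array, and the 5 CR males did not overlap with the 6 control males. The difference was -0.46 ± 0.08 (SE, n = 11 CR and 12 control; limma adjusted p 0.148), which is 0.726 of the control level. An exact two-sided permutation test within the sexes gave an unadjusted p of 3.05e-05. Fcho1 was picked for its small p on these same arrays, and the test treats pups as independent, so this p is a description. A second, dimmer Fcho1 probe gave -0.13 ± 0.12. The adjusted p was 0.0235 without CR female 1 and at most 0.375 when any other array was left out.

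Fgd2 encodes an exchange factor for the small GTPase Cdc42 that is found in antigen-presenting cells. Control ratios ran from 0.0085 to 0.79 with a median of 0.39, and CR ratios from -0.99 to 0.39 with a median of -0.24 (probe at chr20:7700998-7701057 on rn4). The ranges overlapped, with 6 of 11 CR arrays below every control array and 10 of 11 below the control median. The difference was -0.63 ± 0.12 (adjusted p 0.161), at -0.80 ± 0.17 in males and -0.45 ± 0.16 in females. Without CR male 2, the highest CR male, the adjusted p was 0.00404.

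Gga2 encodes an adaptor that loads cargo into clathrin vesicles at the Golgi. Its control ratios ran from -0.32 to 0.58 with a median of 0.26 (probe at chr1:180817089-180818184 on rn4). In CR pups they ran from -1.31 to 0.076 with a median of -0.35, and all 11 CR arrays lay below the control median. The difference was -0.65 ± 0.12 (adjusted p 0.171), and it was negative on 6 of 6 slides, from -0.98 to -0.23. It was at -0.95 ± 0.18 in males and -0.36 ± 0.17 in females, and the adjusted p without CR male 2 was 0.0184.

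Havcr1, a cell-surface receptor for phosphatidylserine that is also known as Tim-1, had control ratios from 0.044 to 0.34 with a median of 0.25. The CR ratios ran from -0.28 to 0.22 with a median of -0.011, and 8 of 11 CR arrays were below every control array. The difference was -0.25 ± 0.053 (adjusted p 0.291). With the ratio as the scanner software computed it, the Havcr1 difference was -0.73. The cause of this gap was not tested, so the size of the difference depends on the processing. Havcr1 was dim, with a mean log2 intensity of 6.55, against 8.22 for Fcho1, 9.16 for Fgd2 and 9.23 for Gga2. Of genes named below, Btbd11 (6.17), Laptm4b (6.58), Unc5b (6.49), Scd (6.5), Fads3 (6.66) and Or4c11 (6.35) were also dim.

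Btbd11 had control ratios from -0.086 to 0.35 with a median of 0.096, and CR ratios from -0.17 to 0.067 with a median of -0.097. All 11 CR arrays lay below the control median. The 4 control arrays high in intestinal genes lay between -0.086 and 0.052. The difference was -0.22 ± 0.046 (adjusted p 0.291) with all arrays and -0.26 ± 0.048 without those 4.

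Laptm4b, a membrane protein of late endosomes and lysosomes, had control ratios from 0.084 to 0.36 with a median of 0.19. In CR pups they ran from -0.15 to 0.16 with a median of 0.017, and 9 of 11 CR arrays were below every control array. The difference was -0.21 ± 0.044 (adjusted p 0.291), it was nearly the same in males (-0.22) and females (-0.19), and it was negative on 6 of 6 slides.

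Of the other named genes in this direction, Hip1r, which ties clathrin coats to actin, was at -0.39 ± 0.083 and its adjusted p was 0.00608 without CR male 2. Cnr2, the cannabinoid receptor of immune cells, was at -0.44 ± 0.10, and Plcg2, the phospholipase that acts below the B cell receptor, at -0.45 ± 0.11. Sox5, a transcription factor, was at -0.36 ± 0.086 with -0.58 in males and -0.15 in females. Pcyt2, which makes the activated ethanolamine used for phosphatidylethanolamine, was at -0.20 ± 0.045 with -0.077 in males and -0.31 in females. Dot1l, a histone methyltransferase, was at -0.17 ± 0.040, and Unc5b, a netrin receptor, at -0.16 ± 0.038. Without the 4 arrays high in intestinal genes all 14 genes kept their sign and an unadjusted p under 0.05. The remaining arrays were among those used to pick the genes, so this is a description.

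The RefSeq promoter table (GRCr8, 300 bases that span a gene's start) had entries for 9 of these 14 genes. The octamer ATGCAAAT, searched on both strands, lay in 2 of the 9, Fcho1 and Cnr2, and in 1.78% of all 33469 promoters in the table. A gene was counted if any of its entries held the motif, so the 2 shares differ in unit. The Fcho1 promoter (chr16:18464649-18464948, minus strand) is shown because that gene had the smallest p of the comparison, with the octamer in capitals.
Fcho1: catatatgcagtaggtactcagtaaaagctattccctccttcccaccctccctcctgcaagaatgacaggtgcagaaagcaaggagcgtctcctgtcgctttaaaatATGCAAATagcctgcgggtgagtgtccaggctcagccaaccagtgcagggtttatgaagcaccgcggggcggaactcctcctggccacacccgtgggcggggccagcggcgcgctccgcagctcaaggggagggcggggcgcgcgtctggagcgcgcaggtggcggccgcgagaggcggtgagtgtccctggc

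All 17 measured B cell genes had a lower mean in CR pups. Of these, 10 (58.8%) had an unadjusted p under 0.05 and 0 were called after adjustment, against 4.83% of all features lower at that threshold. The median difference of the list was -0.24, against 0.0032 over all features. It was -0.45 with the ratio of the scanner software and -0.38 with median centring. It was -0.35 in males and -0.17 in females with all arrays, and -0.34 without the 4 arrays high in intestinal genes, with 13 of 17 genes then under the same threshold. Over all features 894 of 20184 were then lower at it. In bulk PBMC, fewer B cells and less RNA of these genes in each B cell cannot be told apart. The list medians of single arrays overlapped, from -0.089 to 0.62 in controls and from -0.55 to 0.21 in CR pups.

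Ms4a1, which encodes CD20, had control ratios from -0.31 to 0.76 with a median of 0.12. The CR ratios ran from -0.85 to 0.0011 with a median of -0.28. All 11 CR arrays lay below the control median and 5 below every control array. The difference was -0.57 ± 0.13 (adjusted p 0.382), which is 0.673 of the control level. It was negative on 6 of 6 slides.

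Cd22, an inhibitory receptor, was at -0.30 ± 0.081. The receptor component Cd79b was at -0.47 ± 0.16, the kinase Blk at -0.39 ± 0.11, the complement receptor Cr2 at -0.32 ± 0.098 and the low-affinity IgE receptor Fcer2 at -0.42 ± 0.16. Cd72 was at -0.45 ± 0.16, with -0.73 in males and -0.17 in females. The 7 genes of the list with a larger p included Vpreb3, Ebf1 and Cd24. Vpreb3 was at -0.016 ± 0.22, Ebf1, a factor of early B cell development, at -0.076 ± 0.18 and Cd24 at -0.16 ± 0.23. Each of these 3 was below 0 in males and above 0 in females, at -0.34 and 0.31 for Vpreb3, although no difference between the sexes was called. Plasma cell genes gave a list median of 0.032, with 1 of 9 at an unadjusted p under 0.05: Sdc1, at -0.21 ± 0.098. Sdc1 encodes syndecan-1, which epithelium also carries, and was at -0.078 ± 0.084 without the 4 arrays. Mzb1, a chaperone of antibody-secreting cells, was then the 1 gene under the threshold, at -0.36 ± 0.14.

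Genes of MHC class II and antigen presentation had a median of -0.27 over all pups, below that of the B cell list (-0.24). The order was the other way without the 4 arrays (-0.24 and -0.34), with the scanner software's ratio (-0.43 and -0.45) and in males (-0.26 and -0.35). Of 18 measured genes 16 had a lower mean in CR pups. At an unadjusted p under 0.05, 12 (66.7%) were lower, against 4.83% of all features, while 0 were called after adjustment. The list median was -0.28 in females, and -0.43 in all pups with median centring. There were 8 of 18 genes under that threshold without the 4 arrays, where 894 of all 20184 features were lower. B cells are the main class II carriers of blood, and all 17 genes of the B cell list were lower in the same comparison. The part of B cell number in the class II values was not tested.

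RT1-Db1, a class II beta chain, had control ratios from -0.12 to 0.96 with a median of 0.39. Its CR ratios ran from -0.66 to 0.39 with a median of -0.12, and all 11 CR arrays were below the control median. The difference was -0.50 ± 0.12 (adjusted p 0.382), at -0.49 in males and -0.50 in females. A second probe of RT1-Db1 gave -0.51 ± 0.12, and another, far dimmer one gave -0.068 ± 0.24.

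Cd74, the invariant chain, was at -0.56 ± 0.16 (11 CR and 11 control arrays), with 6 of 11 CR arrays below every control array. Ifi30, the thiol reductase that opens antigens in the endosome, was at -0.37 ± 0.095. The alpha chains RT1-Da and RT1-Ba were at -0.33 ± 0.11 and -0.19 ± 0.071. Of the genes that load the peptide, RT1-DMa was at -0.26 ± 0.087, RT1-DOa at -0.29 ± 0.11 and RT1-DOb at -0.47 ± 0.19. Ciita, the coactivator that switches on class II genes, was at -0.24 ± 0.069. The DNA-binding subunits it works with were nearer 0, with Rfxank at -0.067 ± 0.051, Rfx5 at -0.048 ± 0.043 and Rfxap at 0.050 ± 0.057. The costimulatory receptors differed among themselves: Cd40 was at -0.44 ± 0.13 and Cd83 at -0.52 ± 0.21, whereas Cd86 was at 0.018 ± 0.083. The proteases Ctss and Lgmn were at -0.071 ± 0.067 and -0.017 ± 0.085.

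Class II promoters are known for a conserved element, the Y box. Of the 18 measured genes 16 had an entry, and CTGATTGG, searched on both strands, lay in 6 of them: RT1-Ba, RT1-Bb, RT1-DOa, RT1-Da, RT1-Db1 and Rfx5. It lay in 3.5% of all 33469 promoters in the table, where each entry counts by itself. The octamer lay in 0 of these 16 genes. Of 9 B cell genes with an entry 2 held the octamer and 0 the Y box. The Y box also lay in 0 of the 9 lower named genes with an entry. The promoters of both chains of both classical molecules are shown on GRCr8, with the Y box in capitals, at chr20:4515165-4515464 (plus strand) for RT1-Da, chr20:4560113-4560412 (minus strand) for RT1-Db1, chr20:4576807-4577106 (plus strand) for RT1-Ba and chr20:4604069-4604368 (minus strand) for RT1-Bb.
RT1-Da: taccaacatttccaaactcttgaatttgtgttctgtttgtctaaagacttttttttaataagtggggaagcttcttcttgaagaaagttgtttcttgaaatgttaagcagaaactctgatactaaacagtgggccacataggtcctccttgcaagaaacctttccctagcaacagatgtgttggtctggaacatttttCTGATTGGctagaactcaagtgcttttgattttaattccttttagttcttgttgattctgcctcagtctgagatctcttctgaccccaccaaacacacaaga
RT1-Db1: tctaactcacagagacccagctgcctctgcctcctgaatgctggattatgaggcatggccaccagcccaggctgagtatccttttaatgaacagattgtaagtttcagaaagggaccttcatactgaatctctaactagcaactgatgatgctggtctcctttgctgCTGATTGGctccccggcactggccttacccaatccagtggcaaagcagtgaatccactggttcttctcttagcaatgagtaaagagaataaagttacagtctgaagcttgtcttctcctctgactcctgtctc
RT1-Ba: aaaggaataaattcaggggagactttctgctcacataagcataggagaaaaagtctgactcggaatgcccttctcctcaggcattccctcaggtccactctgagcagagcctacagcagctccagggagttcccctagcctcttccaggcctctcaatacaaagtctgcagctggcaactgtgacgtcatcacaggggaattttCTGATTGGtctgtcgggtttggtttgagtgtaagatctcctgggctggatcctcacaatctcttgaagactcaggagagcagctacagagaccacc
RT1-Bb: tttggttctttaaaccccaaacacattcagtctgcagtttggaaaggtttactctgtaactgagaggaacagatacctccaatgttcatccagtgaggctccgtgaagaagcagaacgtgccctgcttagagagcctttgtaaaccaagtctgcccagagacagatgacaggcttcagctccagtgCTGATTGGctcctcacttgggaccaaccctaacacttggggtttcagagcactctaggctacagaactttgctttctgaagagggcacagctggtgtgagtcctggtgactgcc

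RT1-Bb had the largest class II difference, at -2.05 ± 0.87, but its arrays fell into separate levels. On 6 arrays, 1 control and 5 CR, the ratio lay between -4.66 and -4.16, and on the other 17 arrays between -0.45 and 1.94. The gap between the levels was 3.71, and no array lay within it. A second probe of RT1-Bb, on which the arrays formed no separate levels, gave -0.29 ± 0.12, close to the values of its neighbours RT1-Ba and RT1-Da. Ldhb, the heart form of lactate dehydrogenase, fell apart in the same way: 7 arrays, 6 control and 1 CR, lay between -2.91 and -2.27, and the other 16 between 0.013 and 1.47. Its difference of 1.42 ± 0.54 is the mean over arrays at both levels. RT1-Aw2, a class I gene, was at -3.32 and -3.13 on 2 CR male arrays and between -0.50 and 0.91 on the other arrays.

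**Figure D2:**
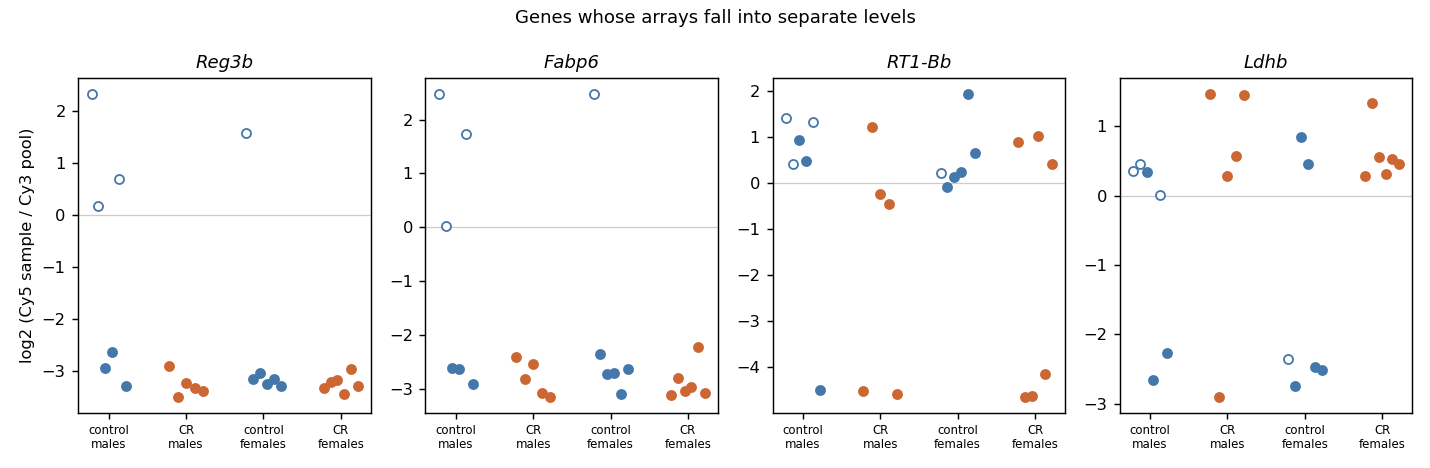
Log2 ratio of each pup to the pool (vertical axis) in the 4 groups for Reg3b and Fabp6 of the intestinal epithelium and for RT1-Bb and Ldhb; open points are the 4 control arrays high in intestinal genes. Reg3b and Fabp6 are high on those 4 arrays alone, while RT1-Bb is low on 1 control and 5 CR arrays and Ldhb on 6 control and 1 CR arrays. The 4 arrays were picked by their Reg3b ratio, so the Reg3b gap follows from that choice.

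Counted over all features, 6 were lower and 3 higher by more than 1 on the log2 scale, and named genes among them were Fabp1, Reg3b, Fabp6, S100g, RT1-Bb and Ldhb. The first 4 belong to the intestinal epithelium: fatty acid and bile acid binding proteins, an antibacterial lectin and a calcium-binding protein. Reg3b ran from 0.19 to 2.34 on the 4 arrays named above and from -3.50 to -2.62 on the other 19. Its difference was -1.59 ± 0.60 with all arrays and -0.19 ± 0.091 without the 4. Fabp6 went from -1.59 ± 0.64 to -0.12 ± 0.13 in the same way, S100g from -1.02 ± 0.45 to -0.070 ± 0.14 and Fabp1 from -1.16 ± 0.40 to -0.34 ± 0.22. The median difference of the 22 intestinal genes was -0.64 with the 4 arrays and -0.055 without them. The 4 arrays were picked by their high Reg3b ratio, so the gap and drop of Reg3b follow from that choice. Those of the other intestinal genes follow from it in part.

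Of 49 measured genes of clathrin adaptors and endocytic traffic 34 had a lower mean and 15 a higher one in CR pups, where 9730 of all 20184 features had a lower mean. At an unadjusted p under 0.05, 12 (24.5%) were lower, Fcho1, Gga2 and Hip1r among them, against 4.83% of all features, and 0 were higher. None was called after adjustment. The list median was -0.048, and -0.21 with median centring. The list was written with Fcho1, Gga2 and Hip1r already known to lead earlier results of these data, so its count is a description. The other 2 members of the Gga family were at -0.16 ± 0.058 (Gga3) and -0.15 ± 0.069 (Gga1). Clathrin light chain Cltb was at -0.16 ± 0.061, and the AP-1 adaptor subunits Ap1b1 and Ap1m1, which work beside the Gga proteins, were at -0.23 ± 0.089 and -0.21 ± 0.083. The sorting receptor Sorl1 was at -0.25 ± 0.077, with -0.052 in males and -0.44 in females. Scamp4, a membrane protein of recycling vesicles, was at -0.20 ± 0.048, Snx2, a retromer-linked sorting nexin, at -0.19 ± 0.076, and Bin1, which bends membranes, at -0.12 ± 0.046. Without the 4 arrays 9 of the 49 genes stayed under the threshold.

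Genes of fat synthesis and breakdown are known to respond to nutrient supply in many tissues. Of 20 measured genes of fatty acid synthesis and desaturation 14 had a lower mean in CR pups, 7 (35%) had an unadjusted p under 0.05 and were lower, and 0 were higher at that threshold. Over all features 4.83% were lower at it. The list median was -0.081, -0.21 with median centring and -0.075 without the 4 arrays, with 6 of 20 genes under the threshold. None of the 7 passed the adjusted threshold.

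Fasn, the fatty acid synthase, had control ratios from -0.12 to 0.34 with a median of 0.041. Its CR ratios ran from -0.25 to 0.12 with a median of -0.13, and 6 of 11 CR arrays lay below every control array. The difference was -0.18 ± 0.053 (adjusted p 0.469), at -0.081 ± 0.077 in males and -0.28 ± 0.073 in females. A second Fasn probe gave -0.27 ± 0.051.

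Srebf1, the transcription factor that drives lipogenic genes, ran from -0.38 to 0.26 in controls and from -0.53 to -0.083 in CR pups. All 11 CR arrays lay below the control median of -0.081, the difference was -0.18 ± 0.066 (adjusted p 0.519), and it was negative on 6 of 6 slides. The desaturases Scd, Scd2 and Fads3 were at -0.24 ± 0.076, -0.25 ± 0.085 and -0.21 ± 0.055. Fads3 without the 4 arrays was at -0.28 ± 0.056 and Scd at -0.31 ± 0.086. The citrate carrier Slc25a1 was at -0.16 ± 0.070 and Acss2, which makes acetyl-CoA, at -0.14 ± 0.065.

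Sterol genes lay nearer 0: 21 of 26 had a lower mean, where 9730 of all 20184 features had one. At the threshold 2 (7.69%) were lower, Tm7sf2 at -0.18 ± 0.070 and Fdps at -0.16 ± 0.073, against 4.83% of all features. Of 27 nuclear receptor, sterol export and lipoprotein receptor genes 4 (14.8%) were lower at that threshold and 0 higher. The shares over all features were 4.83% and 3.07%. Rxrb, the partner of many lipid-sensing receptors, ran from 0.0051 to 0.57 in controls and from -0.52 to 0.23 in CR pups, and its difference was -0.27 ± 0.081 (adjusted p 0.476). Abcg1, a cholesterol exporter, was at -0.15 ± 0.058, Lrp10 at -0.13 ± 0.060 and Rxra at -0.11 ± 0.052. Lrp1, a large endocytic receptor, was at -0.14 ± 0.093. Of 27 genes of phospholipid and triacylglycerol synthesis, 2 (7.41%) were lower at the threshold, Pcyt2 and Lpcat3 (-0.18 ± 0.074), against 4.83% of all features.

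Fatty acid oxidation showed no common direction, with 13 of 24 genes lower and a median of -0.0074. Under the threshold 1 was lower (4.17%) and 2 higher (8.33%), against 4.83% and 3.07% of all features. Cpt1a, which admits fatty acids to the mitochondrion, ran from -0.33 to 0.41 in controls and from -0.066 to 0.77 in CR pups. Its difference was 0.26 ± 0.084 (adjusted p 0.482), and 0.20 ± 0.094 without the 4 arrays. Decr1 was at 0.17 ± 0.074, and 0.12 ± 0.076 without the 4 arrays, so that 0 genes of the list were then higher at the threshold. Acadl was at -0.13 ± 0.046. The hormone-sensitive lipase gene Lipe was at 0.10 ± 0.050, the cholesterol transporter gene Star at 0.034 ± 0.040 and the uncoupling protein gene Ucp2 at -0.045 ± 0.18.

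**Figure D3:**
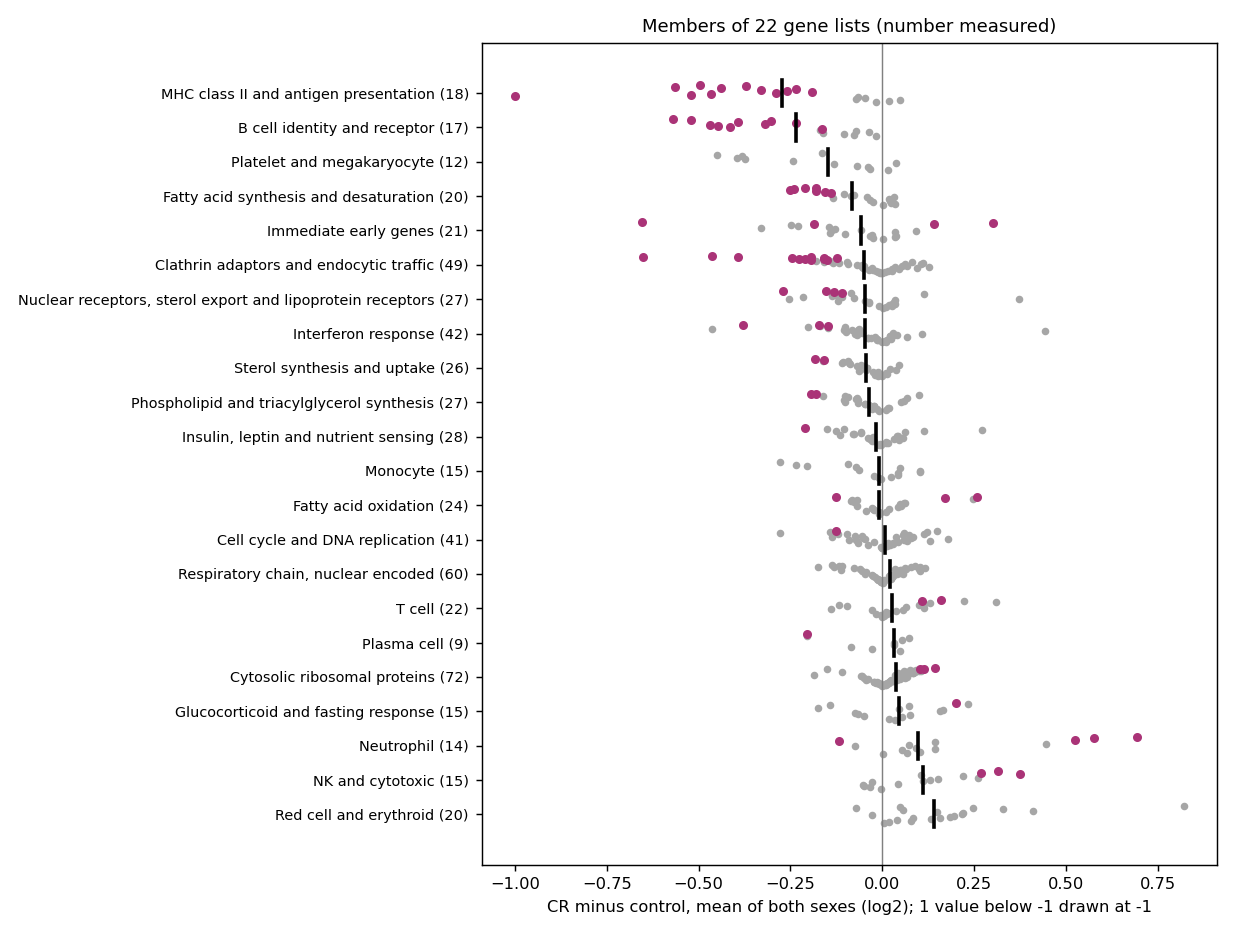
Difference of each measured gene (CR minus control, log2, horizontal axis) in 22 lists, with the number measured in brackets; dark points have an unadjusted p under 0.05 and black bars are list medians. Medians are -0.27 for class II and -0.24 for B cell genes, and all 17 B cell genes lie below 0.

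At an unadjusted p under 0.05, fewer features were higher in CR pups (619) than lower (974). The 14 named genes with the smallest p among the higher ones were Mier1, Dse, Stfa2, Cstpp1, Thap12, Fntb, Csta, Tox, Scaper, Rbm3, Cep20, Defb22, Apmap and Or4c11, with adjusted p from 0.401 to 0.476. All 14 were above 0 in both sexes, and 9 of 14 were above 0 on each of the 6 slides. They were picked for a small p on these same arrays, which favours such agreement.

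**Figure D4:**
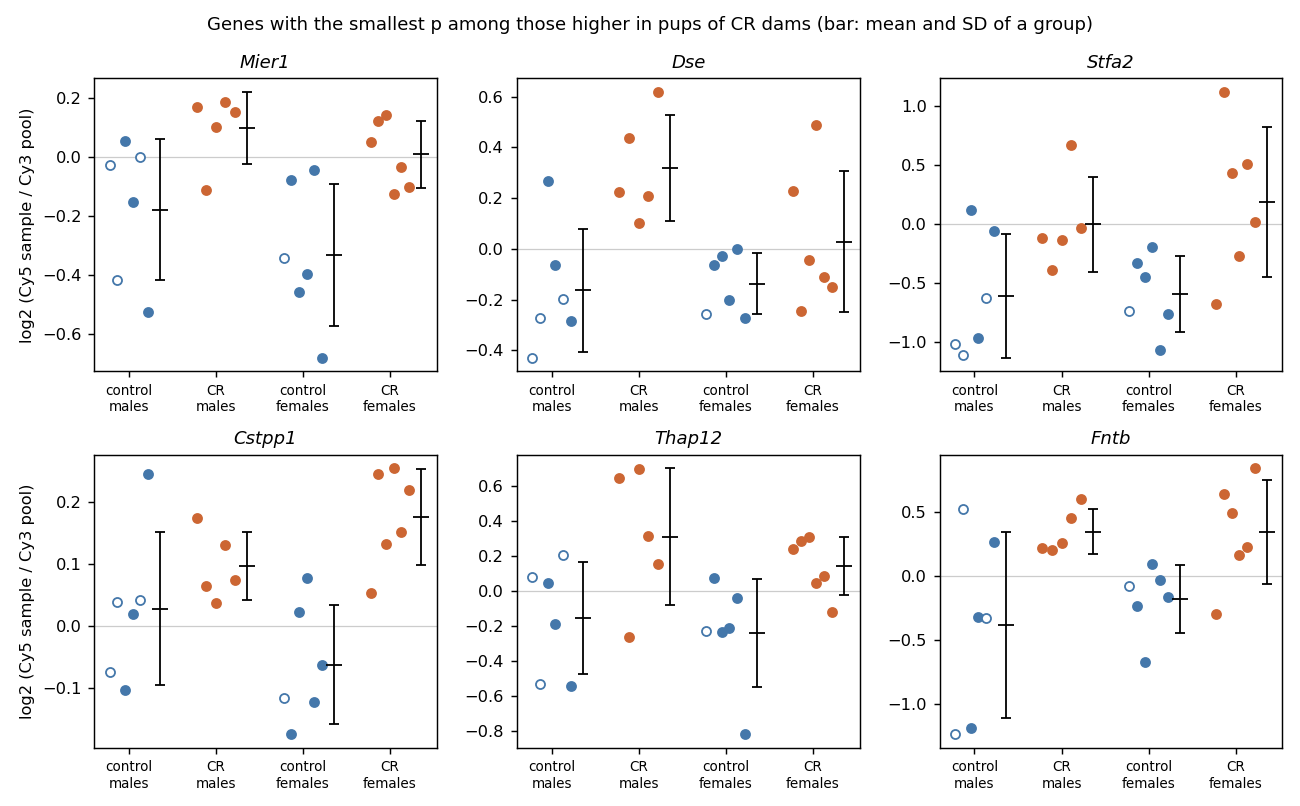
Log2 ratio of each pup to the pool (vertical axis) in the 4 groups for the 6 genes with the smallest p among those higher in CR pups. Points are arrays, open points the 4 control arrays high in intestinal genes, and bars the group mean and SD; for Mier1 and Stfa2 all 11 CR arrays lie above the control median.

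Mier1, a corepressor that recruits histone deacetylases, had control ratios from -0.68 to 0.052 with a median of -0.25. Its CR ratios ran from -0.13 to 0.19 with a median of 0.099, and all 11 CR arrays were above the control median. The difference was 0.31 ± 0.077 (adjusted p 0.401), positive on 6 of 6 slides from 0.12 to 0.63. A second probe gave 0.27 ± 0.14.

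Stfa2, a stefin that inhibits cysteine proteases and is abundant in neutrophils, had control ratios from -1.11 to 0.12 with a median of -0.68. Its CR ratios ran from -0.68 to 1.12 with a median of -0.038, so that all 11 CR arrays were above the control median and 4 above every control array. The difference was 0.69 ± 0.19 (adjusted p 0.467), or 1.62-fold, and 0.52 ± 0.22 without the 4 arrays. Csta, another stefin gene on chromosome 11, was at 0.37 ± 0.10. The stefin A genes are close copies of each other, so a probe may also bind RNA of other members and which of them it reports is uncertain.

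Fntb, the beta subunit of protein farnesyltransferase, had control ratios from -1.24 to 0.52 with a median of -0.20 and CR ratios from -0.30 to 0.84 with a median of 0.26. The groups overlapped widely, with 3 of 11 CR arrays above every control array. The difference was 0.63 ± 0.18 (adjusted p 0.467), and a second, dimmer probe gave 0.23 ± 0.089.

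Dse, the epimerase that makes dermatan sulfate, had control ratios from -0.43 to 0.27 with a median of -0.20 and CR ratios from -0.25 to 0.62 with a median of 0.21. Of the CR arrays 10 of 11 lay above the control median and 3 above every control array. The difference was 0.32 ± 0.088 (adjusted p 0.467), at 0.48 in males and 0.17 in females, while a dimmer Dse probe gave 0.059 ± 0.051.

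Thap12 had control ratios from -0.82 to 0.21 with a median of -0.20 and CR ratios from -0.26 to 0.70 with a median of 0.24. Here 6 of 11 CR arrays were above every control array, and the difference was 0.43 ± 0.12 (adjusted p 0.467). Its other probes gave 0.068 ± 0.050 and -0.0052 ± 0.054, so the difference was seen on the brightest of 3 probes alone.

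Cstpp1, a regulator of tubulin polyglutamylation at centriolar satellites, had control ratios from -0.18 to 0.25 with a median of -0.022 and CR ratios from 0.037 to 0.25 with a median of 0.13. The difference was 0.15 ± 0.043 (adjusted p 0.467), and 1 of 11 CR arrays lay above every control array.

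Of the rest, Tox, an HMG-box factor of T cell development, was at 0.32 ± 0.094, Scaper, a cyclin A-binding protein, at 0.38 ± 0.11 and the cold-inducible RNA-binding protein gene Rbm3 at 0.29 ± 0.087. Cep20, of the centrosome, was at 0.19 ± 0.058 and Apmap at 0.19 ± 0.059. Defb22, a defensin, and Or4c11, an olfactory receptor, were at 0.13 ± 0.039 and 0.13 ± 0.041.

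Markers of neutrophils pointed upward in part. Of 14 measured genes 12 had a higher mean in CR pups, where 9730 of all 20184 features had a lower one. At an unadjusted p under 0.05, 3 (21.4%) were higher and 1 (7.14%) was lower, against 3.07% and 4.83% of all features. The 3 were Stfa2 and the calprotectin subunits S100a9 (0.58 ± 0.22) and S100a8 (0.53 ± 0.22), and the lower one was Ceacam1 (-0.12 ± 0.056), which is also an epithelial gene. S100a9 ran from -1.30 to 0.34 in controls and from -0.83 to 0.64 in CR pups. The S100a9 difference was 0.32 ± 0.24 and the S100a8 difference 0.28 ± 0.23 without the 4 arrays, and 1 gene of the list was then under the threshold. Neutrophils are not part of a PBMC fraction, and how many of them each preparation held was not measured.

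Natural killer and cytotoxic genes had a list median of 0.11. At an unadjusted p under 0.05, 3 of 15 (20%) were higher and 0 lower, against 3.07% and 4.83% of all features. Klrd1, the CD94 chain of natural killer receptors, was at 0.32 ± 0.10, but at 0.65 ± 0.15 in males and -0.017 ± 0.14 in females. Klrb1a was at 0.27 ± 0.10 and the protease gene Gzmk at 0.38 ± 0.17, whereas the perforin gene Prf1 was at -0.051. At that threshold 6 of 15 genes were higher without the 4 arrays, against 673 of all 20184 features. T cell genes were centred near 0, with a median of 0.026 that was -0.13 with median centring. The costimulator Icos (0.16 ± 0.076) and Cd3d (0.11 ± 0.051) were higher at the threshold, 2 of 22 (9.09%) against 3.07% of all features. The coreceptor genes Cd4 and Cd8a were at -0.12 and 0.013. Of 15 monocyte genes 0 were under the threshold, with Cd14 at -0.28 ± 0.18 and Csf1r at -0.24 ± 0.17. Red cell and platelet genes had 0 of 20 and 0 of 12 under the threshold. Their medians, 0.14 and -0.15, turned to -0.20 and 0.12 without the 4 arrays.

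Of 6 sex-linked genes 0 were under the threshold. The lists of general cell function gave few genes under the threshold. Ribosomal protein genes had a median of 0.039, which was -0.13 with median centring. Of these, 3 of 72 (4.17%) were higher, against 3.07% of all features: Rplp2 (0.14 ± 0.048), Rpl21 (0.11 ± 0.043) and Rps19 (0.10 ± 0.047). There were 10 of 72 higher without the 4 arrays, against 673 of all 20184 features. Of 60 nuclear genes of the respiratory chain 0 were under the threshold, and the list median was 0.020, or -0.15 with median centring. Of 41 cell cycle genes Mcm5 (-0.13 ± 0.052), a helicase subunit, was the only one under it. Of 42 interferon response genes 3 (7.14%) were lower, against 4.83% of all features: the signal transducer Stat2 (-0.17 ± 0.057), Bst2 (-0.38 ± 0.15) and Oasl2 (-0.15 ± 0.066). Of 28 genes of insulin, leptin and nutrient sensing Akt1 (-0.21 ± 0.079) was under the threshold, and of 15 glucocorticoid and fasting response genes Cited2 (0.20 ± 0.071). Immediate early genes split, with 2 of 21 lower (9.52%), Ier2 (-0.66 ± 0.22) and Klf2 (-0.19 ± 0.070), and 2 higher (9.52%), Fosb (0.30 ± 0.11) and Ier3 (0.14 ± 0.060). The shares over all features were 4.83% and 3.07%. Ier2 was at -0.34 ± 0.21 without the 4 arrays.

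The diet difference was then compared between the sexes by an interaction term. No feature had a sex difference at an adjusted p of 0.05, the smallest adjusted p was 0.81, and 968 features had an unadjusted p under 0.05. Of the 974 features lower in CR pups at an unadjusted p under 0.05, 954 were below 0 in both sexes, and of the 619 higher ones 594 were above 0 in both. Averaging over the sexes favours such features, so these counts are a description. Among the named genes the sex difference was largest relative to its SE for Klrd1 (male minus female difference 0.66 ± 0.21), Gga2 (-0.59 ± 0.25), Sox5 (-0.43 ± 0.17) and Pcyt2 (0.24 ± 0.090), each with an adjusted p of 0.948. RT1-Db1 (0.0070 ± 0.24) and Plcg2 (-0.00070 ± 0.21) had almost the same value in both sexes.

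**Figure D5:**
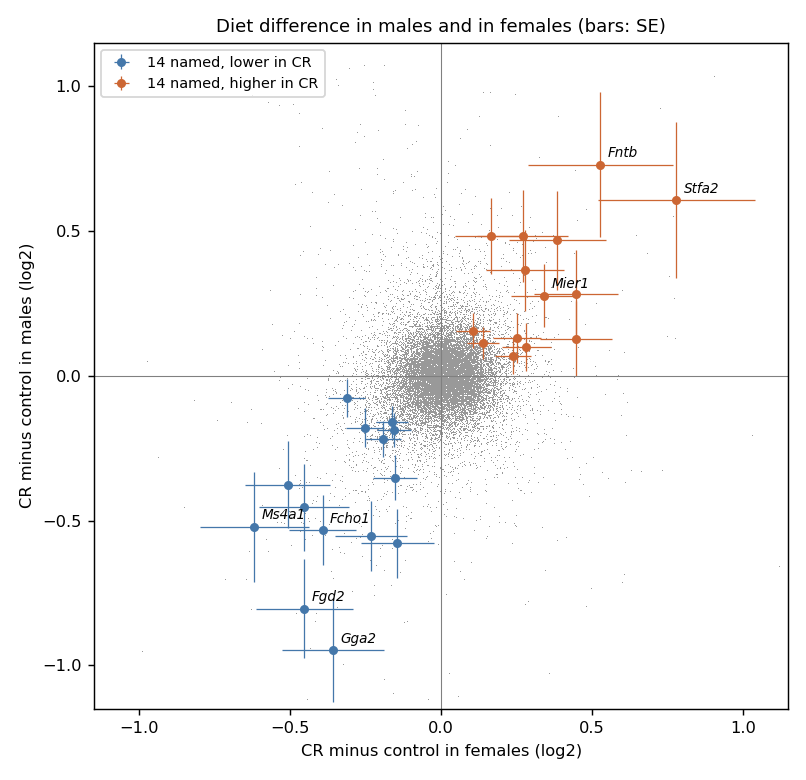
Diet difference in females (horizontal axis) against males (vertical axis), both CR minus control on the log2 scale, for all 20184 features (grey; those beyond the frame are not drawn) and for the 28 named genes with their SE. All 14 named genes lower in CR pups lie below 0 in both sexes and all 14 higher ones above 0 in both. The genes were picked on the difference averaged over the sexes, which favours this.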

How the data were processed

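PBMC RNA of 23 pups was measured on Agilent 2-colour arrays. Per the file headers, each deposited file holds mean spot intensity and median local background intensity per channel, scanner flags (a yes or no score per spot) and the scanner software's log10 ratio of Cy5 over Cy3; the submitters' processing notes name Agilent Feature Extraction 10.5.1.1. The deposited value table holds 1 log2 value per probe and array, whose normalization is not given in the sources used here.

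Intensities were background-corrected with normexp (offset 50) and normalized by loess within each array (limma 3.58.1, R 4.3.3), giving log2 Cy5 over Cy3. The normexp model was fitted without spots of flagged local background, because with all spots included the spread of log2 ratios fell to between 0.027 and 0.048 on 4 arrays, against 0.13 to 0.19 on all arrays here. Probes well above background in Cy5 on at least 0.5 of the arrays of 1 group were kept (23693 of 41012), 1 per gene name, the brightest. Names came from RefSeq, by accession, symbol or synonym, for 19693 probes and from the files for 21319. Group means of the 4 sex and diet groups were fitted with lmFit and eBayes and p-values adjusted by Benjamini-Hochberg over all 20184 features; the fitting steps were tested on simulated data. The named genes are the 14 of smallest p in each direction with a symbol that is no placeholder or pseudogene, the 3 of smallest p in each of 24 lists, and Fasn, Srebf1, Cpt1a, Rxrb, Lrp1, Lipe, Star and Ucp2; further list members, genes beyond 1 on the log2 scale and genes in separate levels were chosen after their values were seen. The groups compared, the rule and the lists were chosen with earlier results of these data known. The intestinal list was written, and the 4 arrays high in Reg3b were picked by that gene alone, after the values were seen. Array number limits the precision. Some genes and 1 of the lists are not reported here.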

Additional observations from a re-analysis of the deposited data

Results flagged for a closer look

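The highest or lowest array of a sex and diet group was tested against the rest, over the 6 genes of each direction shown by array. In these 48 tests 3 values stood apart, each on control female 6 or CR male 2. Chance sets apart about 1 in 20 such groups, so this number is close to chance. Control female 6 had the highest Fcho1 ratio of its group, at 0.82, with the nearest control female at 0.37. The same array had the lowest Thap12 ratio of its group, at -0.82, with the nearest at -0.24. CR male 2 had the lowest Mier1 ratio of the CR males, at -0.11, with the nearest at 0.099.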

How the results depend on the processing

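Every comparison was repeated with other background correction, normalization, filters, probe choice, weights, blocks and models, with the deposited value table, and without each array in turn. Of 3429 values of 95 named genes, 3407 kept their direction and their side of the adjusted threshold, 8 passed it and 14 changed sign. The count of features past the adjusted threshold was 6 with array quality weights and ran from 0 to 3 when 1 array was left out. Lower features numbered 3172 with median centring and 1531 with weights, and from 759 to 1405 without 1 array; higher features numbered 159 with median centring, 1202 with weights and 1105 with no filter, and from 466 to 950 without 1 array. Median centring also turned the sign of Cd3d (-0.055), Epor (-0.0056), Cd38 (-0.055), Rplp2 (-0.012), Rpl21 (-0.065), Rps19 (-0.15), Ndufb6 (-0.089), Eif2s3 (-0.11) and Uty (-0.063), and moved the median of all features to -0.072. Without the 4 arrays high in intestinal genes, an alternative chosen after seeing the data, F13a1 at 0.057, Pf4 at 0.10 and Clec1b at 0.13. Ddx3x was at 0.031 with the mean of its probes, and Uty ran from -0.0074 (without control female 4) to 0.215 when 1 array was left out. The cause of these shifts was not tested. List medians moved beyond their spread in 17 of 864 comparisons.

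With the replicate number as a block, 0 features passed (smallest limma adjusted p 0.0653), with 1020 lower and 688 higher at an unadjusted p under 0.05. Same-numbered arrays did not deviate together: the median correlation was 0.091 over 33 pairs, from -0.41 to 0.46, and 2 of 23 arrays correlated best with one of their own number. With the slide as a block 0 passed (smallest 0.363), with 834 lower and 597 higher. The median SE was 0.061, and the arrays could not resolve differences of that size. Even Fcho1, at -0.463 ± 0.08, did not pass adjustment (limma adjusted p 0.148). The median SE was 0.049 in the dimmest 4037 features and 0.071 in the brightest 4037.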

Other observations

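Features without a RefSeq name were also among those beyond 1 on the log2 scale: H32804 was at -1.30 ± 0.38, XM_345411 at 1.11 ± 0.37 and A_44_P606523 at 1.17 ± 0.43. Each of these differences is a mean over arrays at separate levels. A_44_P606523 lay between 0.469 and 1.46 on some CR arrays and between -2.10 and -1.36 on all others. XM_345411 lay between 1.14 and 1.30 on some CR arrays and between -1.50 and 0.151 on all others. H32804 lay between 0.377 and 1.69 on some arrays of both diets and between -1.53 and -0.835 on the rest. Adamts13, the protease that cuts von Willebrand factor, lay in separate levels with a gap of 2.35 between them: 15 arrays, 6 control and 9 CR, were at the low level. Red cell genes gave opposite medians in the sexes, 0.50 in males and -0.18 in females, with no gene under an unadjusted p of 0.05.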
